A study of Mus musculus with 2 samples.

Results

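Cytosolic ribosomal proteins, the protein subunits of the ribosomes that translate nuclear-encoded mRNA, were examined in RNA-seq libraries of sorted mouse bone marrow stromal cells. Members were the rows of the deposited expression table whose symbol is Rpl or Rps with a number and at most 1 letter, or Rplp0, Rplp1, Rplp2 or Rpsa. Pseudogene symbols, the Rps6k kinases and rows naming several genes were left out. This gave 80 genes of 35798 rows. Of these, 76 belong to the core set of 79 ribosomal proteins, 31 of the small and 45 of the large subunit, and the other 4 (Rpl3l, Rpl10l, Rpl39l and Rps27l) are paralogs. Core proteins outside the members include Rpl13a, in a row shared with a neighbouring gene, and Fau, whose symbol does not follow the rule.

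The cells were sorted from adult C57BL/6 bone marrow as negative for CD45, CD31 and Ter119 (leukocyte, endothelial and erythroid surface markers) and positive for GFP, which nestin regulatory sequence drives in perivascular stromal cells of the stem cell niche. The control genotype was Nes-gfp. The other was Nes-gfp;Mx1-cre;JAK2-V617F, in which an interferon-responsive Cre switches on the activated kinase of myeloproliferative neoplasms. Controls were littermates. Both groups received pIpC, the double-stranded RNA analogue that induces Mx1-cre, and cells were taken 6 weeks later. Each library pooled 3 animals. There was 1 library per genotype, so no value below has a replicate error, no test between genotypes was possible, and each difference is one between 2 libraries. The labels give the control neither Cre nor the mutation, so the effects of these cannot be told apart.

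Every cell makes ribosomal proteins in roughly equal numbers, since each ribosome holds a single copy of nearly all of them, and their mRNAs are among the most abundant of a growing cell. Most of these mRNAs start with a cytidine followed by a run of pyrimidines, the terminal oligopyrimidine (TOP) motif, through which mTOR and the RNA-binding protein LARP1 set their translation together. In bone marrow, a shortage of ribosomal proteins mainly harms red cell formation, as in the inherited Diamond-Blackfan anaemia.

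The start of the transcript was the sequence feature examined, since it carries the TOP motif. RefSeq promoters (GRCm38.p6) were found for 60 of the 80 members. In 13 of these 60 (21.7%), an annotated start was a C followed by at least 4 further pyrimidines, against 3.01% of all 27025 genes with a promoter in the same table. The 4 such members with the lowest and the 4 with the highest ratio between the libraries are shown from 10 bases before to 20 after the start, with the pyrimidine run from the start base in capitals. Rps10 and Rpl15 lay toward the low end of all members, whereas Rpl35a and Rpl14 lay near equality (log2 ratios of -0.03 for both). The 4 highest ran from 0.21 (Rpl38) to 0.48 (Rplp2). These 8 were picked by their ratio, so their spread is no result.
Rps10, chr17:27635225-27635254, minus strand: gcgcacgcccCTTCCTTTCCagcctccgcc
Rpl15, chr14:18270967-18270996, minus strand: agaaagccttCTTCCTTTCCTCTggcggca
Rpl35a, chr16:33056472-33056501, plus strand: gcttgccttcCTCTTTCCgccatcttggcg
Rpl14, chr9:120571507-120571536, plus strand: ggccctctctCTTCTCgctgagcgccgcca
Rpl38, chr11:114668570-114668599, plus strand: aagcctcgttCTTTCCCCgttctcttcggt
Rps21, chr2:180257369-180257398, plus strand: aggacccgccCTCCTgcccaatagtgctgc
Rps15a, chr7:118116128-118116157, minus strand: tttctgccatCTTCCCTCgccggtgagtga
Rplp2, chr7:141447641-141447670, plus strand: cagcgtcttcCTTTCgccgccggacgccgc

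Rps10, picked as the lowest, was at 588 FPKM (control) against 456 FPKM (JAK2 V617F). Rplp2, picked as the highest, was at 1075 against 1504 FPKM. FPKM is the authors' level per gene, scaled by transcript length and library size, and where a pair of levels is given, the control comes before JAK2 V617F. Over the 13 core members with a TOP at an annotated start, 6 were higher and 7 lower in the JAK2 V617F library, and the median log2 ratio was -0.01. The other 43 core members with a promoter had 22 higher and 21 lower, with a median of 0.00. In the window from 250 bases before to 50 after the start, read on both strands, the ETS-type motif CCGGAAGT was present in 12 of the 60 members (20%) and in 4.31% of all genes. These matches describe the letters of the windows, and an annotated start can differ from the one used in these cells. The 43 can therefore include TOP mRNAs, so the 13 and the 43 do not contrast genes with and without the motif.

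Ribosomal protein mRNAs were abundant in both libraries. The median core member was at 571 FPKM (control) against 579 FPKM (JAK2 V617F). All 76 core members lay in the top 10% of expressed protein-coding genes in each library. The 80 members summed to 55833 and 56502 FPKM, a JAK2 V617F to control ratio of 1.01, beside a ratio of 0.883 for all rows at 1 FPKM or more in a library. Their share of the summed FPKM was therefore 6.04% (control) and 6.91% (JAK2 V617F). Most of the difference in the total lay in small RNA rows, which summed to 398379 FPKM (control) and 326017 FPKM (JAK2 V617F). Without small RNA rows the members' shares were 10.6% and 11.5%.

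Levels spanned a wide range among proteins that the ribosome holds at nearly equal number. In the control, 67 of the 76 core members lay between 200 and 1200 FPKM. Rpl23a, a protein at the exit of the peptide tunnel, stood far above all others at 7186 FPKM (control) and 6354 FPKM (JAK2 V617F), 12.6 times the median core member of the control. Its row spans chr11:78176711-78183584 (GRCm38), where the table also places Tlcd1 (65.0 and 19.4 FPKM) and the small nucleolar RNA Snord4a, which was listed at 0 for the control and reached 5082 FPKM for JAK2 V617F. Whether small RNA reads enter the Rpl23a level was not tested, so that level is uncertain. Next came Rps27, a zinc-binding protein of the small subunit, at 2192 and 2437 FPKM. Rpl41, the smallest ribosomal protein, was at 1566 and 1531 FPKM. Rpl32 was at 1555 and 1721 FPKM, and Rpl4, which reaches into the peptide tunnel, at 1461 and 1524 FPKM. At the low end stood Rpsa, the small subunit protein also known as the laminin receptor, at 129 and 155 FPKM. It was followed by Rpl29 at 234 and 233 FPKM, Rpl37 at 236 and 327 FPKM, and Rps7 at 251 and 237 FPKM. The order was much the same in both libraries: 17 of the 20 highest core members were shared, and across the 76 genes the log2 FPKM values had a Pearson r of 0.97 (Spearman rho of FPKM 0.95), as a description of points from the same 2 libraries. Many ribosomal protein genes have near-identical pseudogene copies, so these levels depend on how the authors' counting assigned shared reads, which is not given in the sources used here.

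**Figure D1:**
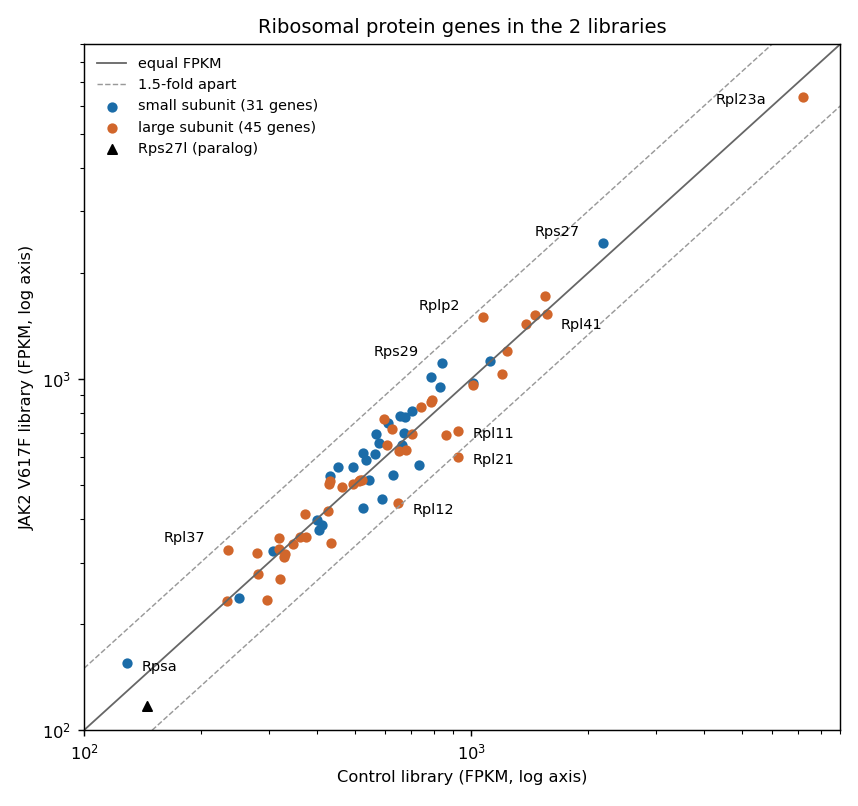
Level of each ribosomal protein gene in the control library (x axis) and the JAK2 V617F library (y axis), in FPKM on log axes, for 31 small-subunit genes, 45 large-subunit genes and the paralog Rps27l. Points follow the line of equal FPKM over the whole range from Rpsa (129 and 155 FPKM) to Rpl23a (7186 and 6354 FPKM), and Rpl21 alone lies outside the dashed lines of 1.5-fold.

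Levels of ribosomal protein genes differed little between the libraries. Differences are given as log2((JAK2 V617F FPKM + 1)/(control FPKM + 1)) for rows at 1 FPKM or more in a library, which held for 78 of the 80 members, so the filter removed only the paralogs Rpl10l and Rpl39l. The median over the 78 was 0.00, beside -0.03 over all 15425 rows tested, with 40 members above 0 and 38 below, where 48.2% of all rows tested were above 0. None reached 2-fold in either direction, where 13.7% of all rows tested were at least 2-fold higher and 11.3% at least 2-fold lower. At 1.5-fold, 0 members were higher and 2 lower (Rpl21 and the paralog Rpl3l), where 22.2% of all rows were higher and 21.3% lower. Low rows vary more, so the comparison was repeated with the 683 other protein-coding genes whose mean over the libraries was at least 100 FPKM. Of these, 1.9% were 2-fold higher, 3.95% were 2-fold lower, 5.12% were 1.5-fold higher and 14.8% were 1.5-fold lower, and 32.1% were above 0. The standard deviation of the log2 ratio among core members was 0.22, beside 0.73 among those abundant genes, whose ratios ran from -6.04 to 7.55. From the lower to the upper quartile the distance was 0.26 beside 0.50. The median control level of those genes was 169 FPKM, beside 571 FPKM for core members, so levels were not matched. Their filter on the mean also admits genes that are high in a single library. Their lowest levels were 0.273 FPKM (control) and 3.88 FPKM (JAK2 V617F), beside 129 and 155 FPKM among core members. This widens their standard deviation and raises their shares past each fold, so these are not like for like. Of the core members, 64 of 76 (84.2%) were within 1.25-fold, beside 57.0% of the abundant genes, and 36 were within 1.1-fold.

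The sign of the family as a whole depends on how the libraries are scaled. As deposited, 40 of 76 core members were above 0. Rescaling both libraries to the same summed FPKM moves the ratio of an abundant gene by 0.18 on the log2 scale. Low rows move less, because 1 FPKM is added to each level. The median of all rows becomes 0.13 and that of the members 0.18, and then 64 of 76 core members lie above 0. Without small RNA rows in the sum, 60 of 76 lie above 0. The order of the core members does not depend on this shift, whereas every count above or below 0 does.

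**Figure D2:**
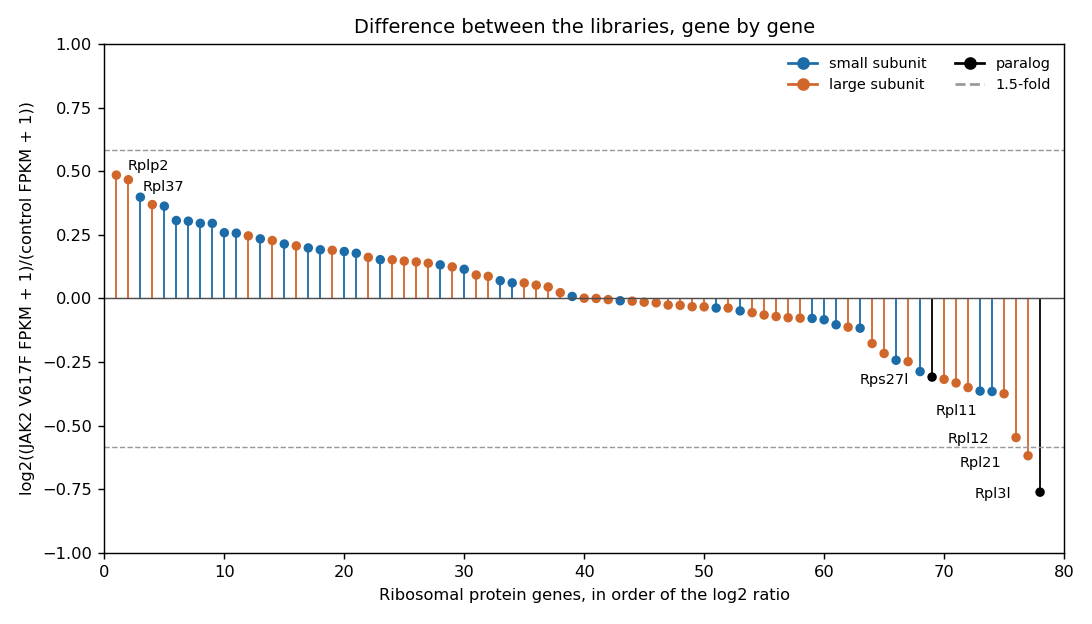
Log2 ratio between the libraries for the 78 ribosomal protein genes at 1 FPKM or more, in order from highest (left) to lowest (right), coloured by subunit and with some of them named, with paralogs in black and dashed lines at 1.5-fold. The range among core members runs from 0.48 for Rplp2 to -0.62 for Rpl21, and only Rpl21 and Rpl3l pass a dashed line.

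Small-subunit genes lay higher than large-subunit genes in the JAK2 V617F library relative to the control. Of the 31 small-subunit members, 20 were above 0 and 11 below, with a median of 0.13. Of the 45 large-subunit members, 20 were above 0 and 25 below, with a median of -0.01. The ranges overlapped almost wholly, from -0.37 to 0.40 and from -0.62 to 0.48, and the difference of the medians has no replicate check. Rescaling shifts both medians alike, to 0.31 and 0.17 after rescaling to the same summed FPKM, so it cannot test their order. Summed FPKM was 19831 and 21265 for the small subunit and 35855 and 35119 for the large one.

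On the small subunit, the proteins that line the mRNA channel and the decoding side lay on both sides of equality. Rps2 and Rps3, at the entry of the channel, were at 545 and 514 FPKM and at 403 and 372 FPKM. Rps14, a platform protein whose haploinsufficiency causes the anaemia of a deletion form of myelodysplastic syndrome, was at 735 FPKM (control) against 571 FPKM (JAK2 V617F) (log2 ratio -0.36). Rps27a, made as a fusion with ubiquitin, was at 432 and 530 FPKM (0.29), and Rps15 at 674 and 782 FPKM (0.21). Of this list of 8, 5 were above 0 and 3 below. Rps6, the substrate of the S6 kinases downstream of mTOR, was at 399 and 396 FPKM.

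Several small-subunit genes outside that list also stood away from equality. Rps29 was at 841 FPKM (control) against 1108 FPKM (JAK2 V617F) (0.40). Rps15a was at 786 and 1011 FPKM (0.36), Rps21 at 566 and 699 FPKM (0.30) and Rps20 at 612 and 751 FPKM (0.30). Among the lowest, beside Rps14, were Rps10 at 588 and 456 FPKM (-0.37) and Rps3a at 525 and 430 FPKM (-0.29).

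On the large subunit, the acidic stalk that recruits elongation factors was uneven. Rplp2 had the highest ratio of all core members, at 1075 FPKM (control) against 1504 FPKM (JAK2 V617F) (0.48). Its partner Rplp1 was at 1385 and 1436 FPKM (0.05), and Rplp0, which anchors both to the ribosome, at 374 and 355 FPKM (-0.08). Rpl12, at the base of the stalk, had nearly the lowest ratio, at 647 and 442 FPKM (-0.55). It lay just inside 1.5-fold. Its row (chr2:32876114-32964496) shares its locus with 2 other rows of the table. Of the core members, 16 share a locus in this way, small RNAs aside, among them Rps10, Rpl15, Rpl5, Rpl31 and Rps27a, and the values of these are less certain.

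The 5S RNP proteins bind 5S rRNA and, when ribosome assembly fails, Mdm2, which stabilises p53. Of these, Rpl11 was at 923 FPKM (control) against 712 FPKM (JAK2 V617F) (-0.37), while Rpl5 was at 428 and 419 FPKM (-0.03). Mdm2 itself was at 31.6 and 49.2 FPKM (0.62).

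Proteins around the exit of the peptide tunnel lay on both sides of equality. Of 10 on this list, 6 were above 0 and 4 below, with a median of 0.10. Of all 76 core members, 40 were above 0 and 36 below, a similar split. Rpl23a, given above, had the lowest ratio of the list (-0.18). Rpl37 was at 236 FPKM (control) against 327 FPKM (JAK2 V617F) (0.47), and Rpl31 at 595 and 768 FPKM (0.37). Rpl17 was at 431 and 511 FPKM (0.25) and Rpl39 at 372 and 413 FPKM (0.15), whereas Rpl35 was at 281 and 278 FPKM and Rpl19 at 524 and 517 FPKM.

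The lowest ratio of the core set belonged to Rpl21 (chr5:146832890-146837032), at 924 FPKM (control) against 601 FPKM (JAK2 V617F) (-0.62). It ranked 13 of 80 for the control and 37 for JAK2 V617F. Other large-subunit genes at the low end were Rpl3, which lies close to the peptidyl transferase centre, at 435 and 341 FPKM (-0.35), Rpl15 at 297 and 235 FPKM (-0.33) and Rpl13 at 863 and 692 FPKM (-0.32). Fau, the small-subunit protein outside the symbol rule, was at 300 and 235 FPKM (-0.35). The shared row of Flt3l and Rpl13a was at 1471 and 1390 FPKM.

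Genes mutated in Diamond-Blackfan anaemia lay on both sides of equality. Of 19 on this list, all core members, 10 were above 0 and 9 below, with a median of 0.12. After rescaling to the same summed FPKM, 16 of the 19 were above 0. Rps19, the gene most often mutated in that disease, was at 411 FPKM (control) against 383 FPKM (JAK2 V617F) (-0.10). Higher in the JAK2 V617F library were Rps29, Rpl31 and Rps15a, given above, Rps24 at 654 and 783 FPKM (0.26) and Rps26 at 704 and 808 FPKM (0.20). Lower were Rpl11, Rps10 and Rpl15, also given above. Near equality were Rps7 (-0.08), Rpl27 at 329 and 312 FPKM (-0.08) and Rpl35a at 347 and 339 FPKM (-0.03). Between these stood Rpl26 at 318 and 351 FPKM (0.14), Rps28 at 497 and 562 FPKM (0.18) and Rpl18 at 787 and 858 FPKM (0.12).

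The tissue-restricted paralogs were near absent. Rpl10l, the intronless testis copy of the X-linked Rpl10, was listed at 0 in both libraries, where Rpl10 was at 1205 and 1037 FPKM. Rpl39l was listed at 0 for the control and reached only 0.432 FPKM for JAK2 V617F. Rpl3l, the striated muscle form of Rpl3, was at 1.35 and 0.387 FPKM (-0.76). It passed the filter through the control alone, so its place in the count above is not independent of the filter. On a 2 kb transcript 1 fragment was worth about 0.0994 and 0.0866 FPKM. The annotated Rpl3l transcript is shorter, at 1375 nt, so 1 fragment is worth more there and its values rest on few fragments. Of 6 skeletal muscle markers, summed at 54.8 and 24.1 FPKM, 4 reached 1 FPKM. All 4 were lower for JAK2 V617F, but Acta1 (23.6 and 0.719 FPKM) and Tnnt3 (4.03 and 0.545 FPKM) passed the filter through the control alone. The other 2 were below 1 FPKM, Ckm higher for JAK2 V617F by 0.24 on the log2 scale and Myh4 listed at 0 for the control. Their part in the Rpl3l value was not tested. Rps27l, a p53 target that differs little from Rps27, was well expressed at 145 and 117 FPKM (-0.31). Paralogs outside the rule were at similar levels in both libraries: Rpl22l1 at 162 and 168 FPKM, Rpl36al at 115 and 134 FPKM and Rpl7l1 at 13.2 and 13.9 FPKM.

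Members with a short protein tended to lie higher in the JAK2 V617F library. Lengths were taken from the principal GENCODE vM21 transcript. Of 9 core members under 100 codons, 8 were above 0, with a median log2 ratio of 0.21, and Rpl41 was the exception. From 100 to under 150 codons, 17 of 27 were above 0, with a median of 0.13. From 150 to under 200 codons, 8 of 19 were above 0 (median -0.02), and at 200 codons or more 7 of 21 (median -0.03). Across the 76 core members, coding length and log2 ratio had a Spearman rho of -0.44 (Pearson r -0.32). Within the small subunit rho was -0.57 (31 genes) and within the large subunit -0.32 (45 genes). Across 678 other abundant protein-coding genes with a known coding length it was -0.06, although their medians also went from 0.03 under 100 codons to -0.18 at 200 or more. For transcript length in place of coding length, rho across the 76 core members was -0.14 (Pearson r 0.05). That length is of 1 annotated transcript per gene, such as 5179 nt for Rps15a with a coding length of 390 nt. It can differ from the mRNA in these cells, so this value cannot tell the 2 lengths apart. These are descriptions across genes of the same 2 amplified libraries, which differ in depth, so the genes are not independent replicates. For the GC percentage of the annotated transcript, rho with the log2 ratio was -0.16 across the 76 core members. It was -0.31 within the small subunit (Pearson r -0.41) and -0.06 within the large one. For the number of exons, rho across the 76 was -0.30. The part of amplification, base composition and exon number in the trend with coding length was not tested. The bins overlapped, from -0.03 to 0.47 under 100 codons and from -0.35 to 0.26 at 200 codons or more.

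**Figure D3:**
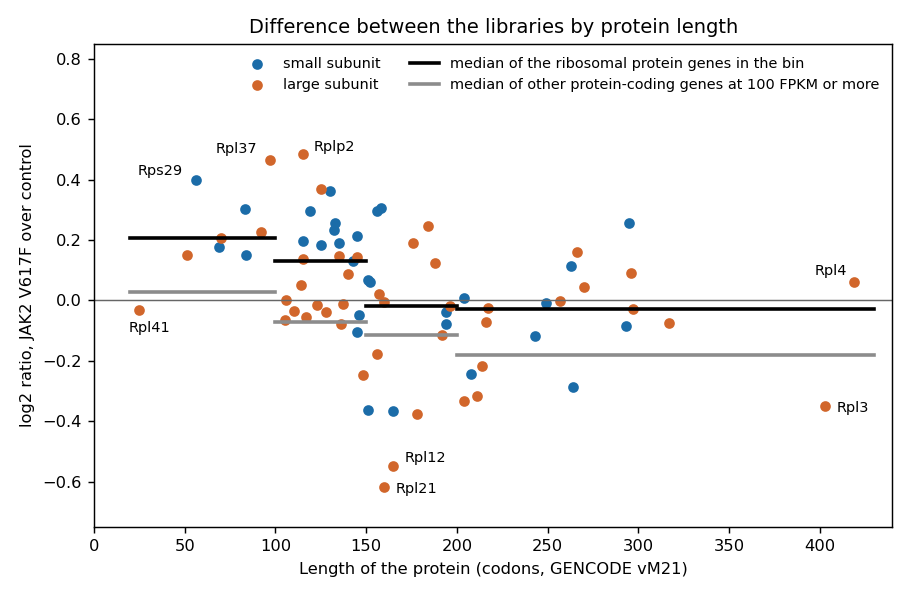
Log2 ratio of the 76 core ribosomal protein genes against the length of the protein in codons, with black bars for their median in each of 4 length bins and grey bars for the median of other protein-coding genes at 100 FPKM or more in the same bins. The black bars step from 0.21 under 100 codons to -0.03 at 200 codons or more, with single genes such as Rpl41 and Rpl4 away from them.

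Other genes of the translation pathway were set beside the members. Of 20 measured genes with TOP mRNAs outside the members, mainly elongation and initiation factors, none passed 1.5-fold. Of all rows tested, 22.2% were 1.5-fold higher and 21.3% lower. Of the 20, 7 were above 0 and 13 below, where 32.1% of the 683 other abundant protein-coding genes were above 0. Their median was -0.13 (standard deviation 0.13). The farthest of the 20 from 0, beside Fau, were the initiation factor gene Eif3k at 166 and 138 FPKM (-0.26) and Btf3, a partner of the nascent chain, at 262 and 219 FPKM (-0.26). Of 30 ribosome assembly genes, 1 was at least 1.5-fold higher and 7 lower, a share of lower genes near the 21.3% of all rows tested. None passed 2-fold, and the median was -0.14. Rrs1, which acts in 5S RNP assembly, was at 15.6 and 7.72 FPKM (-0.93), Rrp9 at 17.8 and 9.45 FPKM (-0.85), and Bop1 at 11.6 and 21.3 FPKM (0.82). The 70 genes of the mitochondrial ribosome, a separate set of proteins expressed far lower (medians 31.6 and 25.6 FPKM), included 3 past 2-fold upward and 3 downward, fewer than the 13.7% and 11.3% of all rows tested would give. They had a median of -0.06 and a standard deviation of 0.54. Their farthest members were Mrps31 at 7.74 and 23.4 FPKM (1.48), Mrps11 at 56.9 and 20.7 FPKM (-1.42) and Mrpl46 at 5.92 and 16.2 FPKM (1.31). Mrps11 and Mrpl46 share 1 locus in the table, so their opposite values are uncertain. After rescaling to the same summed FPKM, the medians of these 3 groups were 0.05, 0.04 and 0.11, so the sign of none of them is fixed. Among 14 genes that regulate ribosomal protein synthesis, 13 reached 1 FPKM. None passed 2-fold, where 13.7% of all rows tested were higher and 11.3% lower. At 1.5-fold, 1 was higher and 2 were lower, where 22.2% and 21.3% of all rows tested were. Eif4ebp2, an inhibitor of cap-dependent translation, was at 385 and 225 FPKM (-0.77), and Rheb, the activator of mTOR, at 43.5 and 27.6 FPKM (-0.64).

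**Figure D4:**
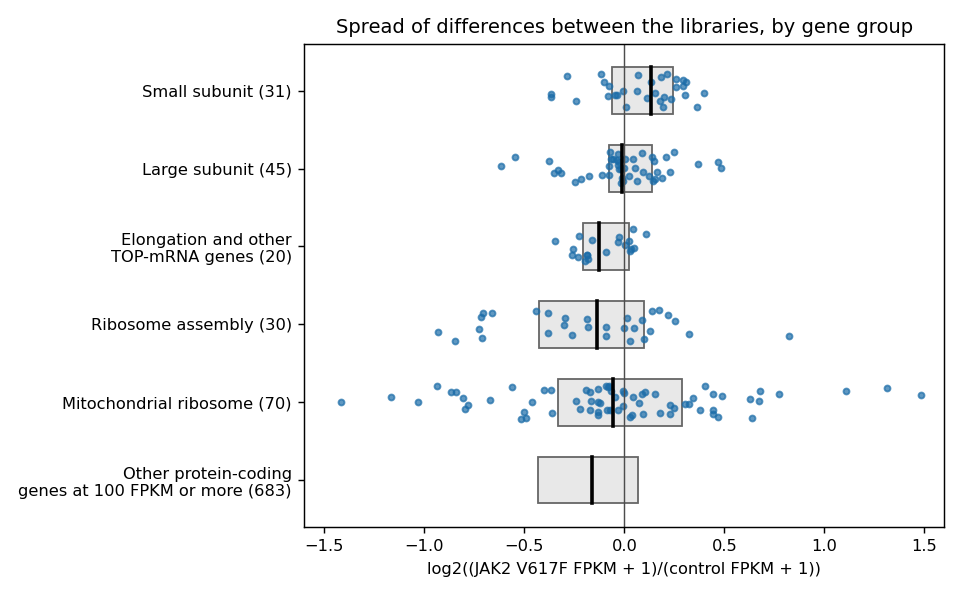
Log2 ratio between the libraries by gene group, with each point 1 gene, the box from the lower to the upper quartile and the thick line at the median; for the 683 other abundant genes only the box is drawn. The small and large ribosomal subunits (medians 0.13 and -0.01) and the other TOP-mRNA genes span less than the mitochondrial ribosome and ribosome assembly groups.

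Depth and cell composition bear on these values. The steps of low FPKM values put the depth at about 5495746 fragments (control) and 6310918 fragments (JAK2 V617F). For the 3 expressed members with a single annotated transcript this gave exact (Clopper-Pearson) 95% intervals for the ratio, which are approximate and cover counting error only. Rplp1 had a ratio of 1.04 (0.983 to 1.09, about 2504 and 2981 fragments). Rpl36 had a ratio of 0.956 (0.865 to 1.05), and Rps3a a ratio of 0.819 (0.772 to 0.868, about 2327 and 2188 fragments), so that of these 3 the interval of Rps3a alone excluded equality as deposited. Under each of the 3 rescalings the interval of Rplp1 excluded it too, from 1.11 to 1.24 after rescaling to the same summed FPKM. All 6 stromal markers were present, from Cxcl12 at 891 and 694 FPKM to Nes at 4.84 and 3.00 FPKM. Of these, 5 were lower in the JAK2 V617F library and Pdgfrb was higher. Their median was -0.46 on the log2 scale, and Ebf3 (-0.67) and Pdgfra (-0.65) passed 1.5-fold. Blood cell transcripts were present too. All 7 leukocyte markers were higher in the JAK2 V617F library (summed 307 and 424 FPKM), and all 7 measured erythroid markers were lower (summed 2187 and 1024 FPKM). Endothelial markers summed to 27.6 and 31.4 FPKM but went in both directions, with Emcn at 0.196 and 5.15 FPKM, Kdr at 2.50 and 1.05 FPKM and Tek at 2.92 and 1.54 FPKM. In such bulk libraries a change in the number of cells of a type and a change in RNA per cell cannot be told apart, and the part of these cells in the ribosomal protein values was not tested.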

How the data were processed

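RNA was measured in 2 libraries of sorted bone marrow cells, 1 per genotype. The labels' protocols describe amplification of 2-3 ng with the Ovation RNA-Seq System v2 and sequencing on a Genome Analyzer IIx. The authors deposited FPKM per gene. The submitters' processing notes name Cufflinks, TopHat2 2.0.7, Bowtie2 2.0.6, cutadapt 1.2.1 and the build GRCm38. For annotation release, strand and settings, the sources used here give nothing.

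Log2 ratios used a pseudocount of 1 FPKM and rows at 1 FPKM or more in a library, and calls were made at 2-fold and 1.5-fold, with no test. Gene type and coding length came from GENCODE vM21 and RefSeq GRCm38.p6; all 80 members matched a gene model, Rps3a through its synonym. Of the rows, 401 name several genes. Locus starts are given from 1. Depth was estimated from FPKM times transcript length minus 170 nt over 5839 single-transcript genes. Of their products below 3.5 fragments, 79.9% (control) and 82.1% (JAK2 V617F) lay within 0.2 of a whole number; the lowest step is centred by construction. The scripts were tested on simulated data. Python 3.11.15, pandas 2.3.3 and scipy 1.17.1 were used.

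Members and lists were chosen with earlier results of these data known. Named members were Rps6, Rps14, any past 2-fold, the 8 with the largest and the 8 with the smallest ratio, the 6 highest and 6 lowest of each library, those listed at 0, and those on the paralog, stalk, 5S RNP and Diamond-Blackfan lists; other lists name the 3 farthest from 0. Some genes that this rule names are not reported here. The remaining genes named, among them other subunit members, were chosen after their values were seen. Alternatives changed the pseudocount, filter, scaling, members and denominator.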

Additional observations from a re-analysis of the deposited data

How the results depend on the processing

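No paired analysis was possible because each group has 1 library, and no replicate could be left out. The median log2 ratio of the members stayed between 0.00 and 0.10 under the alternatives, except after rescaling to the same summed FPKM (0.18). Of the members at 1 FPKM or more in a library, none became 2-fold higher under an alternative, and 1 (Rpl3l) was 2-fold lower with a pseudocount of 0.1 FPKM. With that pseudocount Rpl39l, which is below 1 FPKM and listed at 0 in the control, had a log2 ratio of 2.41. At 1.5-fold, 2 members (Rplp2 and Rpl37) were higher after rescaling to the same summed FPKM. The 2 lower members became 1 under each of the 3 rescalings, where Rpl21 fell inside 1.5-fold and only the paralog Rpl3l remained. With a pseudocount of 5 FPKM, at 5 FPKM or more and without paralogs they also became 1, and there Rpl21 remained. The members' share of summed FPKM was 11.8% (control) and 12.8% (JAK2 V617F) over protein-coding rows, 10.6% and 11.5% without small RNA rows, and 5.26% and 6.13% without Rpl23a, which was left out after seeing the data. Of 205 values of named members under other pseudocounts and scalings, 4 moved by more than the standard deviation among members, those of Rpl3l and Rpl39l with either pseudocount. Rescaling shifts a ratio by at most 0.18, below that standard deviation of 0.24, so no rescaling could move a value past it. The pseudocounts hardly touch abundant genes, so most of these values were bound to stay. Depth was not varied.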

Other observations

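Small nucleolar RNAs guide rRNA modification, and many are cut from introns of ribosomal protein genes. At the loci of 24 members the table holds 39 small RNA rows, which at 2 of the loci are no small nucleolar RNA. Of the 29 rows that reached 1 FPKM, 8 were listed at 0 in the control and 5 in JAK2 V617F, so that these 13 passed through a single library, and no count of calls is given for them. SNORD18 at the Rpl4 locus was at 45032 and 4824 FPKM, while Rpl4 was at 1461 and 1524 FPKM. Snord100 at the Rps12 locus was at 16801 and 25312 FPKM, with Rps12 at a log2 ratio of 0.23. At the Rpl17 locus SNORD58 was at 10539 FPKM (control) and listed at 0 (JAK2 V617F), while Rpl17 was at 431 and 511 FPKM. The 24 members with a small RNA row had a median log2 ratio of 0.07, and the 52 core members without a small RNA row a median of 0.00.

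Annotated ribosomal protein pseudogenes were listed at low levels. Of 218 rows with a pseudogene symbol, 30 reached 1 FPKM, and all 218 summed to 122 FPKM (control) and 88.7 FPKM (JAK2 V617F).

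The 60 core members whose locus no other gene shares (small RNAs aside) had a median log2 ratio of 0.05, and the 16 that share one a median of -0.02. Over those 60, the Spearman rho between coding length and log2 ratio was -0.44.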
